A study of Mus with 12 samples.

Results

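Blood from mice with a DNCB-induced atopic dermatitis-like disease was compared with blood from diseased mice that also received mesenchymal stem cells (MSCs) under the skin. The comparison takes the 3 blood libraries of the scMSC group against the 3 of the DNCB group, 6 of the 12 blood libraries of the study. A gene entered it when 3 or more of those 6 libraries reached an FPKM of 1, which kept 4599 of the 25247 genes in the table. FPKM divides the fragments of a gene by its length in kilobases and by the library's fragments in units of 1000000, so it can be compared between genes of different length. All animals were female BALB/c mice, 6 weeks old at the start, and blood was collected on day 30. The sources used here do not say whether a library held the RNA of a single mouse or of several, so p-values measure the spread between these libraries. DNCB mice received 1-chloro-2,4-dinitrobenzene, a skin sensitiser, on the shaved back and the right ear, at 1% for sensitisation and then at 0.5% for repeated challenge. The scMSC mice received the same DNCB course and injections of 2000000 human umbilical cord MSCs in 100 µL beside the dermatitis area. The other groups were Solvent, treated with vehicle only, and scivMSC, in which the same cell number was split between the subcutaneous site and the tail vein. They entered the fit, and their levels are quoted here as a description. The MSCs were human cells placed in mice not labelled as immune deficient. DNCB mice were not stated to have received an injection without cells, so the cells and the act of injecting cannot be told apart.

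Whole blood RNA comes mostly from red cells and reticulocytes, which carry haemoglobin messages, and the rest comes from platelets and white cells. Neutrophils are short-lived phagocytes filled with granules of antimicrobial proteins, and they leave the bone marrow in larger numbers during skin inflammation. Monocytes, T cells, B cells, natural killer cells, eosinophils and basophils make up the other white cells, and basophils and eosinophils are linked with allergic disease. A bulk library sums all of these, so fewer cells of a type and less RNA of a gene per cell cannot be told apart in any result below.

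The 6 libraries had 52.2e6 to 59.7e6 summed estimated counts, and DNCB and scMSC libraries overlapped in this total. Without the haemoglobin genes the DNCB libraries had 10.2e6 to 12.9e6 counts and the scMSC libraries 7.88e6 to 8.48e6, so these ranges did not overlap. Haemoglobin took 85.6% ± 0.932 (SD, n = 3) of counts in scMSC and 81.2% ± 2.40 (SD, n = 3) in DNCB, a difference of 4.40 percentage points. An exact two-sided permutation test gave p = 0.1 for it, the smallest value that 3 against 3 libraries can give. DNCB replicate 2 stood apart within its group, being the highest DNCB library for 81.5% of all tested genes and for 95.7% of the genes called lower. The part of the haemoglobin share and of that library in the results was not tested, and where leaving out a library moved the count of calls in a list by over 1.5 times, the count without it is given.

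Most blood genes that changed were lower in scMSC than in DNCB. With each library scaled by its total count, edgeR's quasi-likelihood test called 1489 of the 4599 genes (32.4%), where called means an adjusted p under 0.05 and a fold change over 2. Of these, 1426 were lower (31.0%) and 63 were higher (1.37%) in scMSC. The median log2 difference, scMSC minus DNCB, was -0.70 over all 4599 genes, and 3761 genes (81.8%) lay below 0. TMM scaling, which assumes that most genes do not change, put the same median at 0.052 and called 616 genes lower (13.4%) and 458 higher (9.96%). All 616 were also called lower with total counts, and all 63 higher genes were called under both scalings. The groups did not overlap in FPKM for 2767 genes (60.2%). The 3 scMSC values all lay below the 3 DNCB values for 2513 genes (54.6%) and all above them for 254 genes (5.52%). Without DNCB replicate 2 the test called 888 genes, and without scMSC replicate 2 it called 924. The 63 higher calls became 40 without DNCB replicate 3. Through every omission of a single library, 795 lower and 29 higher genes were called.

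The filter itself let in more genes that were high in DNCB. It kept 645 genes with all 3 DNCB libraries at an FPKM of at least 1 and no scMSC library there, against 35 genes of the opposite kind, and 2682 genes reached 1 in all 6 libraries. Genes of the first kind had to be lower in scMSC, and counts over the tested genes are therefore descriptions of what passed, not of all genes. The lists below hold genes of the first kind too, among them Tlr2, Tlr4, Il1rn, Il1rap, Casp1, Casp4, Cxcr1, Clec4e, Csf2rb2, Ms4a6c, Prok2 and Osm. The count of lower calls in a list shares this limit.

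**Figure D1:**
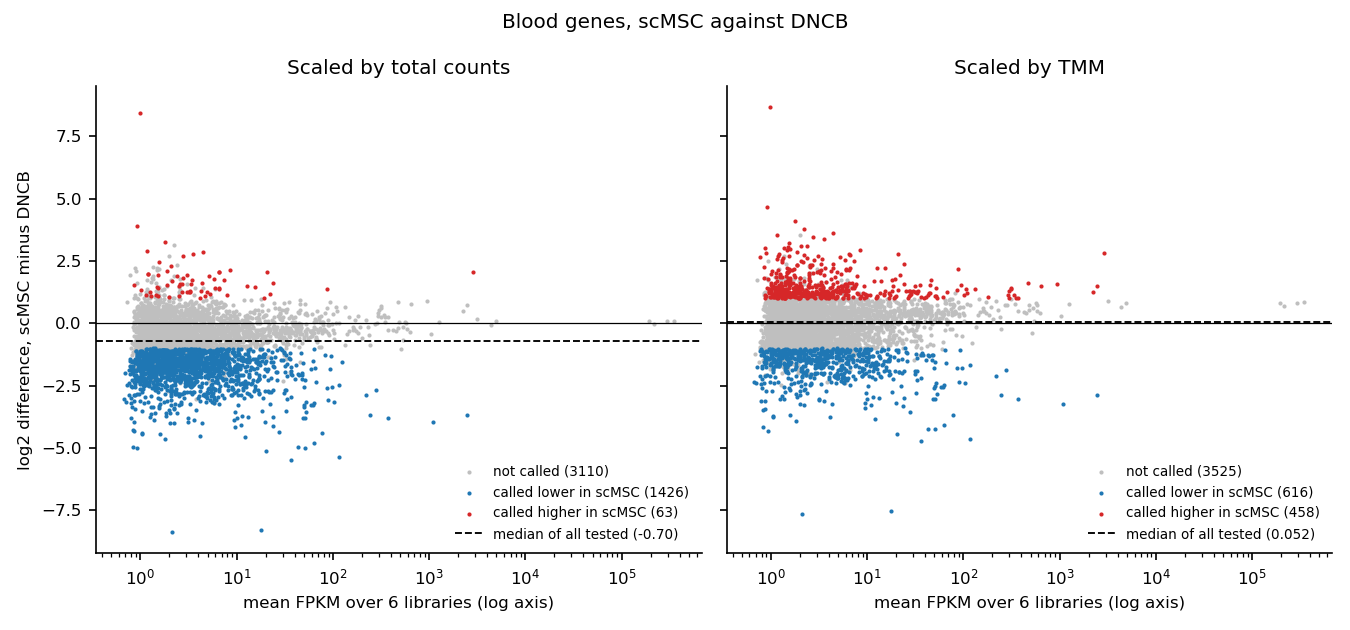
Each point is a tested blood gene, with its mean FPKM over the 6 libraries on a log axis and its log2 difference, scMSC minus DNCB, on the vertical axis, under total-count scaling (left) and TMM scaling (right). Blue points were called lower in scMSC (1426 and 616), red points were called higher (63 and 458), and the dashed line marks the median of all tested genes (-0.70 and 0.052).

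The genes were then described by pathway and family, in 49 lists holding 932 distinct genes, of which 921 were in the table and 619 were tested. Among those 619 genes, 201 were called lower and 11 higher with total counts. As shares, both were close to those of all 4599 tested genes, 31.0% lower and 1.37% higher. For each list with at least 3 tested members the median log2 difference of those members is given with total counts and then with TMM, beside -0.70 and 0.052 over all tested genes. The stefin A, Ifitm and neutrophil granule lists had the lowest medians under both scalings, and lists of T cell, immunoglobulin and globin genes lay above the medians of all tested genes.

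**Figure D2:**
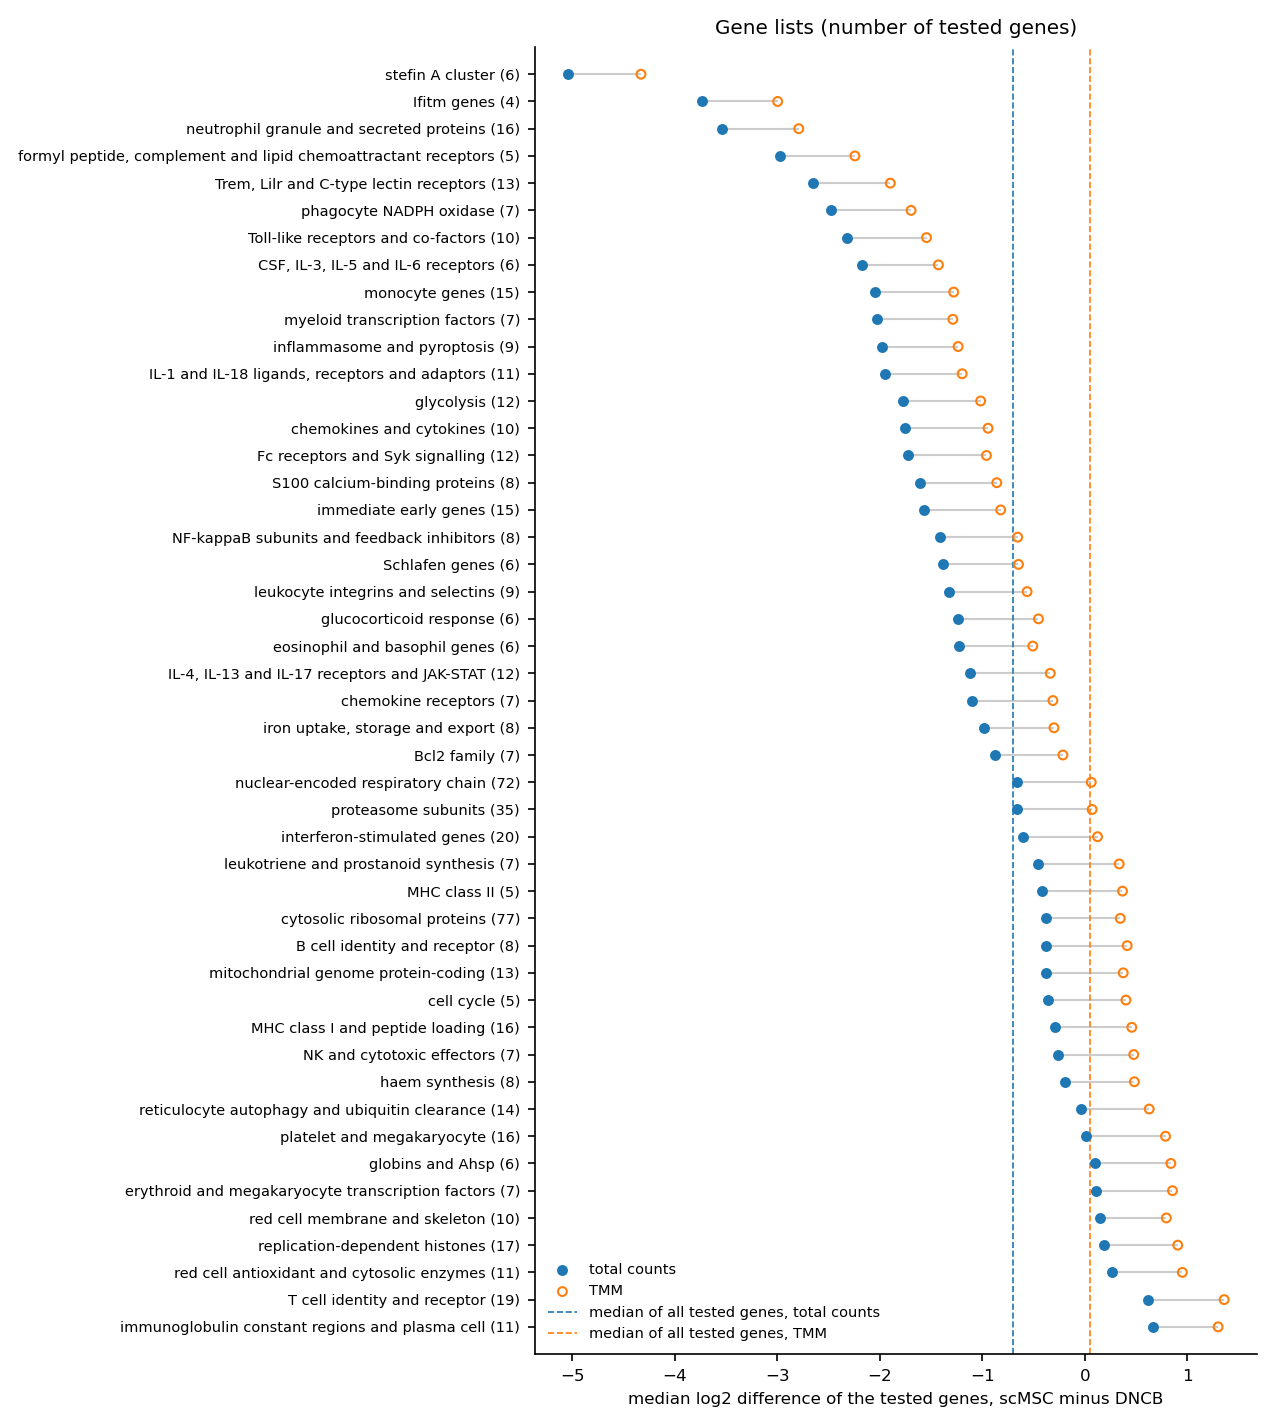
Each row is a gene list with at least 3 tested members (number in brackets), and its points are the median log2 difference, scMSC minus DNCB, with total counts (filled blue) and with TMM (open orange). Dashed lines mark the medians over all tested genes, -0.70 and 0.052, and the lists run from a median of -5.05 for the stefin A cluster to 0.66 for the immunoglobulin constant regions with total counts.

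Genes for neutrophil granule and secreted proteins fell together in scMSC blood. All 16 tested members of 20 in the table were called lower under both scalings, with a median of -3.54 and of -2.79 with TMM, and all 16 calls held when any single library was left out. Ngp, a neutrophil granule protein (chromosome 9, 110419747 to 110423012, positions of the table that overlap the gene on the GRCm38 assembly), had an FPKM of 403, 602 and 349.7 in DNCB and of 30.7, 36.3 and 39.8 in scMSC. Its log2 difference was -3.68 (SE 0.36, adjusted p 8.39e-06), and no scMSC library came near the lowest DNCB library. Camp, the cathelicidin antimicrobial peptide of secondary granules, had 86.9, 122 and 70.8 in DNCB and 9.38, 9.14 and 13.3 FPKM in scMSC, a level 8.87-fold lower (adjusted p 4.35e-05). Retnlg, a resistin-like protein of neutrophils, had 523, 944 and 602 in DNCB and 55.8, 47.1 and 46.6 FPKM in scMSC (log2 difference -3.80, SE 0.39, adjusted p 9.34e-06). In each of these genes DNCB replicate 2 was the highest library.

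Mmp8, the neutrophil collagenase, had an FPKM of 67.6, 122 and 82.5 in DNCB and 6.08, 6.08 and 7.52 in scMSC, with a log2 difference of -3.80 (SE 0.45, adjusted p 4.35e-05). Wfdc21, a small secreted protein of the whey acidic protein family (chromosome 11, 83746940 to 83752642), was the member with the largest change. It had 93.9, 168 and 103 FPKM in DNCB and 4.77, 1.83 and 6.64 in scMSC, and its log2 difference was -4.79 (SE 0.58, adjusted p 4.64e-05). Wfdc17, of the same protein family and outside the lists, fell further, from 154, 288 and 238 FPKM in DNCB to 7.8, 3.19 and 5.87 in scMSC (log2 difference -5.34, SE 0.60, adjusted p 2.54e-05). The mean FPKM in Solvent was 4.16 for Ngp, 1.54 for Camp and 1.72 for Mmp8, against 35.6, 10.6 and 6.56 in scMSC. The scivMSC means were 49.6, 15.6 and 5.96 FPKM. Mpo, the myeloperoxidase of primary granules, did not pass the filter.

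The S100 proteins bind calcium, and S100a8 and S100a9 form calprotectin, an alarmin that makes up much of the neutrophil cytosol. S100a9 (chromosome 3, 90692632 to 90695721) had the highest level of the tested white cell genes described here. Its FPKM was 3792, 5933 and 3833 in the DNCB libraries and 399, 314 and 375 in the scMSC libraries. Its log2 difference was -3.65 (SE 0.37, adjusted p 8.39e-06). S100a8, its partner, had 1713, 2661 and 1761 FPKM in DNCB and 153, 99.5 and 143 in scMSC, a log2 difference of -3.97 (SE 0.39, adjusted p 8.39e-06). For both genes no scMSC library came near the DNCB range. S100a6, a cytoplasmic family member found in many cell types, had 103, 127 and 112 FPKM in DNCB and 15.4, 10.5 and 11.6 in scMSC (log2 difference -3.19, adjusted p 8.92e-05).

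Not all S100 genes went down. Of 8 tested, 4 were called lower under both scalings, and the list median was -1.60 with total counts and -0.86 with TMM. S100a11 was the other gene that fell, at -2.85 (adjusted p 0.000101). S100a4 and S100a13 had log2 differences of -0.35 and -0.21 and were not called. S100a1 and S100a10 lay above 0, at 0.31 and 0.50, and were called higher with TMM scaling only.

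The stefin A cluster encodes cytosolic inhibitors of cysteine proteases such as cathepsins, in a row of near-identical genes on chromosome 16 of the mouse. All 6 tested members were called lower under both scalings and in every omission of a single library, with medians of -5.05 and -4.33. Stfa2 (chromosome 16, 36403992 to 36408457) had an FPKM of 61.3, 89.6 and 62.1 in DNCB and 1.88, 1.75 and 1.14 in scMSC, with a Solvent mean of 0.59. Cstdc5 had 63.4, 105 and 81.2 FPKM in DNCB and 3.07, 2.08 and 2.88 in scMSC, a log2 difference of -4.96 (SE 0.49, adjusted p 8.39e-06). Cstdc4 had 16.4, 34.2 and 19.2 FPKM in DNCB and 1.22, 0.51 and 1.2 in scMSC. In scMSC replicate 2 Cstdc6 was listed at 0, and it had 1.51 and 1.81 FPKM in the other scMSC libraries and 33.9, 49.4 and 34.8 in DNCB (adjusted p 0.00206). Stfa3 was at the counting floor of 12 counts in every scMSC library and at least 72.5-fold lower than in DNCB, where its FPKM was 29.1, 46.7 and 30.3. With Stfa3 placed at that bound, the list median was -5.05, against -5.05 with its fitted value. Reads can be shared among these near-identical genes, so the split between members is uncertain while all of them moved the same way.

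**Figure D3:**
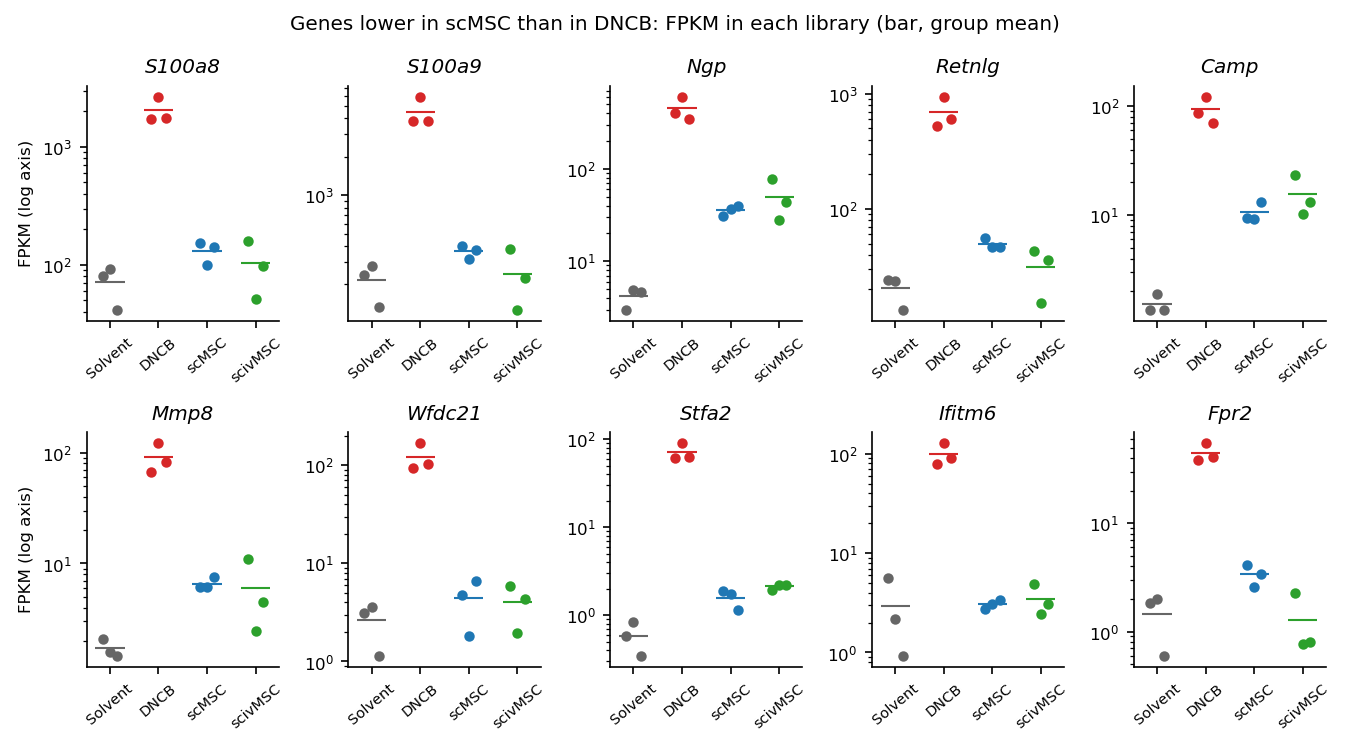
FPKM on a log axis in each of the 12 blood libraries for 10 genes that were called lower in scMSC than in DNCB, with a bar at each group mean. In every panel the 3 DNCB libraries lie above the 3 scMSC libraries without overlap, for example 3792 to 5933 against 314 to 399 FPKM for S100a9.

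Interleukin-1 and interleukin-18 are cytokines that are cut to their active form by the inflammasome, and Myd88 is the adaptor that carries the signal of their receptors and of most Toll-like receptors. Of 11 tested genes of this axis, 8 were called lower with total counts and 7 with TMM, with medians of -1.95 and -1.20. Il1r2, the decoy receptor that binds IL-1 without signalling, had the largest fall, with 9.94, 21.3 and 14.7 FPKM in DNCB and 3.4, 1.91 and 2.08 in scMSC (log2 difference -2.64, SE 0.49, adjusted p 0.000932). Il1rn, the soluble antagonist of the signalling IL-1 receptor, had 2.15, 2.7 and 1.49 FPKM in DNCB and 0.624, 0.406 and 0.467 in scMSC (adjusted p 0.00223). Il1b, the ligand, was named after its values were seen, and had 83.1, 97.9 and 72.3 FPKM in DNCB and 16.8, 15 and 20.8 in scMSC (log2 difference -2.28, adjusted p 0.000704). The ligand and its decoy receptor therefore fell in the same comparison. Il1rn passed the filter through the DNCB libraries alone and could only be lower.

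Il1rap, the shared signalling chain of the receptor, had 1.81, 2.33 and 2.29 FPKM in DNCB and 0.558, 0.434 and 0.714 in scMSC (log2 difference -1.92, adjusted p 0.00481). It too passed the filter through the DNCB libraries alone. Myd88 had 17.3, 26.4 and 18.8 FPKM in DNCB and 4.63, 3.2 and 3.96 in scMSC (log2 difference -2.42, adjusted p 0.000763), and it overlaps Acaa1a on the opposite strand, from which its reads cannot be told apart because strand use in counting was not given. Il18, the ligand, did not pass the filter, whereas Il18bp, its soluble inhibitor, and Il18rap, a receptor chain, had log2 differences of -2.47 and -1.95 and were called under both scalings. Il18r1 and Irak1 lay at 0.12 and -0.14 with total counts and were not called.

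Inflammasome genes code for the sensors and proteases that mature IL-1 and open gasdermin pores. Of 9 tested, 8 were called lower with total counts and 5 with TMM, and 5 without DNCB replicate 2 or without scMSC replicate 2, with medians of -1.98 and -1.24. Casp4, the protease that senses bacterial lipopolysaccharide in the cytosol, had 2.61, 3.37 and 3.21 FPKM in DNCB and 0.442, 0.46 and 0.64 in scMSC (log2 difference -2.56, SE 0.45, adjusted p 0.000762). Casp1, which cuts IL-1 precursors, had 1.6, 2.95 and 1.72 FPKM in DNCB and 0.494, 0.27 and 0.358 in scMSC (log2 difference -2.48, adjusted p 0.00556). Nlrp3, a sensor, had 2.71, 4 and 2.86 FPKM in DNCB and 1.01, 0.593 and 1.07 in scMSC (log2 difference -1.85, adjusted p 0.00438). These 3 genes were called lower under both scalings, but Casp4 and Casp1 passed the filter through the DNCB libraries alone and could only be lower. Gsdmd, the pore protein, had 5.21, 7.96 and 4.53 FPKM in DNCB and 2.42, 1.55 and 2.65 in scMSC, and its call (adjusted p 0.0151) was lost with TMM and without DNCB replicate 2 or scMSC replicate 2. Pycard, the adaptor between sensor and protease, did not pass the filter.

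Toll-like receptors recognise microbial molecules at the cell surface or in endosomes. All 10 tested genes of the list were called lower with total counts and 8 with TMM, with medians of -2.32 and -1.54. Some members, Tlr2 and Tlr4 among them, passed the filter through the DNCB libraries alone and could only be lower. Tlr2, a surface receptor for bacterial lipoproteins, had 5.14, 7.31 and 5.46 FPKM in DNCB and 0.259, 0.803 and 0.833 in scMSC (log2 difference -3.24, SE 0.53, adjusted p 0.000411). Cd14, the co-receptor that hands over lipopolysaccharide, had 7.14, 13.4 and 7.96 FPKM in DNCB and 1.06, 1.04 and 1.26 in scMSC (log2 difference -3.09, SE 0.75, adjusted p 0.00531). Tlr13, an endosomal receptor for bacterial ribosomal RNA, had 9.96, 14.7 and 9.46 FPKM in DNCB and 2.52, 1.67 and 1.88 in scMSC (adjusted p 0.0014). Surface and endosomal receptors were both among the falls. Tlr4, the lipopolysaccharide receptor, was low in level, at 1.15, 2.14 and 1.2 FPKM in DNCB and 0.397, 0.445 and 0.617 in scMSC. Its call (adjusted p 0.0274) was lost with TMM and without any of the scMSC libraries or DNCB replicate 2.

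Receptors for chemoattractants guide phagocytes to a site of damage. The 5 tested formyl peptide, complement and lipid mediator receptors were called lower under both scalings and in every omission, with medians of -2.97 and -2.24. Fpr1 and Fpr2 bind formylated peptides of bacteria and mitochondria. Fpr1 had 19.8, 30.1 and 23.8 FPKM in DNCB and 1.51, 1.36 and 2.71 in scMSC, and Fpr2 had 38.1, 55.1 and 40.8 and 4.15, 2.56 and 3.41. The log2 differences were -3.73 (SE 0.48) and -3.73 (SE 0.50), with adjusted p values of 7.3e-05 and 0.000105. C5ar1, the receptor for complement fragment C5a, had 20.3, 32.8 and 21.5 FPKM in DNCB and 3.37, 2.77 and 3.85 in scMSC (log2 difference -2.91, adjusted p 0.000203).

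Chemokine receptors of neutrophils and monocytes included the falls in that family. Of 7 tested, 3 were called lower under both scalings and in every omission, and Cxcr6 was called higher with TMM only. The medians were -1.10 and -0.31. Cxcr1, a receptor of neutrophils, had 3.92, 4.42 and 3.05 FPKM in DNCB and 0.215, 0.254 and 0.241 in scMSC, below 1 in every scMSC library (log2 difference -3.99, SE 0.74, adjusted p 0.000991). Ccr1, a receptor of monocytes and granulocytes, had 22.9, 34.9 and 24.9 FPKM in DNCB and 5.64, 6.07 and 5.7 in scMSC (log2 difference -2.26, adjusted p 0.000947). Cxcr2 was the other receptor that fell, at -2.57 (adjusted p 0.000191). Ccr2, which brings inflammatory monocytes out of the marrow, had 2.04, 3.61 and 1.44 FPKM in DNCB and 1.12, 0.84 and 1.37 in scMSC and was not called (adjusted p 0.0966). Cxcr4, the marrow retention receptor, had a log2 difference of -0.96 with total counts and -0.20 with TMM and was not called. Ccr7, which homes T cells to lymph nodes, had 5.61, 6.22 and 3.62 FPKM in DNCB and 6.29, 4.7 and 6.63 in scMSC, overlapping groups, and a Solvent mean of 17.5.

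Of the 10 tested chemokine and cytokine genes, 5 were called lower with total counts and 4 with TMM, with medians of -1.75 and -0.94. Prok2, a small chemoattractant protein also known from neutrophils, had 3.19, 5.68 and 3.85 FPKM in DNCB, was listed at 0 in 2 scMSC libraries and had 0.0359 FPKM in scMSC replicate 1. All 3 scMSC libraries were at the counting floor, and Prok2 was at least 40.5-fold lower there. Ccl6, a chemokine of myeloid cells, had 60.6, 84.7 and 61.8 FPKM in DNCB and 21.5, 15.5 and 14.5 in scMSC (log2 difference -2.02, SE 0.39, adjusted p 0.00117). Osm, the cytokine oncostatin M, had 1.34, 2.82 and 1.72 FPKM in DNCB and 0.447, 0.533 and 0.532 in scMSC, and although the groups did not overlap it missed the threshold (adjusted p 0.0591). Tgfb1, the regulatory cytokine TGF-beta 1, had 6.69, 8.4 and 5.04 FPKM in DNCB and 4.68, 4.09 and 4.92 in scMSC, with log2 differences of -0.57 with total counts and 0.20 with TMM and no call under either. Cxcl2, a neutrophil-attracting chemokine, did not pass the filter.

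Receptors for colony-stimulating factors set the output and survival of myeloid cells. All 6 tested genes were called lower with total counts and 4 with TMM, with medians of -2.17 and -1.43. Csf3r, the receptor for granulocyte colony-stimulating factor (chromosome 4, 126024550 to 126044440), had 172, 253 and 168 FPKM in DNCB and 35.2, 35.6 and 38 in scMSC (log2 difference -2.46, SE 0.39, adjusted p 0.000365). The scMSC libraries were within a few FPKM of each other, above the Solvent mean of 22 and below all DNCB libraries. Csf2rb2, a signalling chain of the IL-3 receptor, had 3.54, 5.62 and 4.12 FPKM in DNCB and 0.909, 0.517 and 0.455 in scMSC (adjusted p 0.000763). Csf2rb, the chain shared by the IL-3, IL-5 and GM-CSF receptors, had 6.15, 6.56 and 4.52 FPKM in DNCB and 2.46, 2.34 and 0.932 in scMSC, and its call (adjusted p 0.0228) was lost with TMM and without DNCB replicate 2, scMSC replicate 2 or scMSC replicate 3. These chains are close copies of each other and may share reads.

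Receptors for IL-4, IL-13 and IL-17 are targets of drugs against atopic dermatitis, and they signal in part through JAK kinases and STAT factors. Of 12 tested genes of this axis, 6 were called lower with total counts and 3 with TMM, with medians of -1.12 and -0.34. Il13ra1, a receptor chain for IL-13, had 5.68, 10.4 and 8.28 FPKM in DNCB and 1.4, 1.13 and 0.893 in scMSC (log2 difference -2.84, SE 0.51, adjusted p 0.000812), and it fell under both scalings. Il4ra, the chain it pairs with, and Socs3, a feedback inhibitor of STAT signalling, also fell under both, at -1.77 and -2.42 with total counts. Il17ra had 9.66, 13.9 and 8.77 FPKM in DNCB and 3.31, 2.85 and 3.58 in scMSC (log2 difference -1.74, adjusted p 0.0104), and TMM moved it to -0.98, under the fold threshold.

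Stat3 and Stat6, which relay IL-6 family and IL-4 signals, had log2 differences of -1.50 and -1.31 with total counts (adjusted p 0.00703 and 0.0102) and of -0.73 and -0.53 with TMM, where neither was called. Both overlap another gene on the opposite strand, Stat5a and Nab2. Jak2 had 3.61, 5.33 and 3.39 FPKM in DNCB and 2.72, 2.13 and 2.14 in scMSC, a log2 difference of -0.83 with total counts (adjusted p 0.0572) and -0.06 with TMM. Jak1, Jak3 and Stat5b were not called under either scaling, and Il2rg, a chain shared by lymphocyte cytokine receptors, lay at 0.19 with total counts.

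Fc receptors bind antibody and signal through the kinase Syk. Of 12 tested genes, 11 were called lower with total counts and 5 with TMM, with medians of -1.73 and -0.96. Fcgr3 and Fcgr4 are activating receptors for IgG. Fcgr3 had 22.9, 40.1 and 20.9 FPKM in DNCB and 6.69, 4.45 and 7.42 in scMSC (log2 difference -2.19, adjusted p 0.0016). Fcgr4 had 13.4, 23.8 and 17.3 FPKM in DNCB and 4.6, 1.72 and 3.99 in scMSC (log2 difference -2.41, adjusted p 0.00181). Fgr, a Src-family kinase of phagocytes, had 22.7, 33.3 and 22 FPKM in DNCB and 4.35, 3.73 and 4.05 in scMSC (log2 difference -2.69, adjusted p 0.000292). The genes called under both scalings included these 3 and Fcer1g, the signalling chain shared by the IgE and IgG receptors, at -2.67 (adjusted p 0.000116). Syk itself lay at -1.60 with total counts, where it was called, and at -0.82 with TMM, where it was not.

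The Trem, paired immunoglobulin-like and C-type lectin receptors of myeloid cells fell with 1 exception. Of 13 tested, 12 were called lower under both scalings and in every omission of a library, with medians of -2.65 and -1.90. Trem3 had 15.6, 23.9 and 14 FPKM in DNCB and 1.57, 1.11 and 1.82 in scMSC (log2 difference -3.57, SE 0.43, adjusted p 4.38e-05). Tyrobp, the adaptor that Trem receptors signal through, had 150.2, 201 and 147 FPKM in DNCB and 34.3, 25.6 and 26.4 in scMSC (log2 difference -2.54, adjusted p 0.000208). Pirb, an inhibitory receptor of the paired immunoglobulin-like family, had 14, 20.8 and 16 FPKM in DNCB and 2.79, 2.54 and 2.2 in scMSC (adjusted p 0.000811). Activating receptors, their adaptor and an inhibitory receptor thus moved in the same direction. Clec4d and Clec4e, lectins that recognise mycobacterial and fungal glycolipids, had log2 differences of -2.21 and -2.63 (adjusted p 0.000304 and 0.000952). Treml2, which is also found on lymphocytes, was that exception, at 0.27 with total counts and 1.06 with TMM, where it was called higher.

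The phagocyte NADPH oxidase makes superoxide from a membrane core and cytosolic subunits. All 7 tested genes were called lower with total counts and 6 with TMM, with medians of -2.47 and -1.69. Cybb, the catalytic core, had 8.15, 12.3 and 7.33 FPKM in DNCB and 1.85, 1.24 and 1.42 in scMSC (log2 difference -2.64, SE 0.49, adjusted p 0.000932). Ncf1, the organising subunit, had 17.7, 31.4 and 18.2 FPKM in DNCB and 2.99, 3.42 and 3.34 in scMSC (adjusted p 0.000181), and it overlaps Gtf2ird2 on the opposite strand. Rac1, a GTPase present in nearly all cells, was the subunit not called with TMM, at -1.07 with total counts and -0.31 with TMM, whereas Rac2, its blood-cell relative, was called under both at -2.07 and -1.31.

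The tested lipid mediator genes split along the pathway. The 3 tested genes of leukotriene synthesis, Alox5, Alox5ap and Lta4h, were called lower under both scalings. Ltc4s and Pla2g4a of the same list did not pass the filter. The list of 7 tested genes had medians of -0.45 and 0.34. Alox5, the 5-lipoxygenase, had 5.83, 8.76 and 7.3 FPKM in DNCB and 1.31, 1.29 and 1.18 in scMSC (log2 difference -2.54, SE 0.37, adjusted p 0.000166). Alox5ap, its activating protein, had 86, 142 and 106 FPKM in DNCB and 21.6, 21.9 and 22.9 in scMSC (log2 difference -2.35, adjusted p 0.00012). Lta4h, which makes leukotriene B4, lay at -1.95. Alox12 and Tbxas1, the 12-lipoxygenase and the thromboxane synthase, which platelets carry, lay at 0.25 and 0.57 with total counts and were called higher with TMM only. Ptgs1, the constitutive cyclooxygenase, was at -0.45 and not called, and Ptgs2, the inducible form, did not pass the filter.

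Integrins and selectin ligands hold leukocytes to the vessel wall. Of 9 tested, 5 were called lower with total counts and 2 with TMM, Itgb2 and Selplg, and the 5 became 3 without DNCB replicate 2 or scMSC replicate 2. The medians were -1.33 and -0.56. Itgb2, the shared beta chain of leukocyte integrins, had 54.3, 72.3 and 49.7 FPKM in DNCB and 15.5, 13.5 and 14.4 in scMSC (log2 difference -2.03, SE 0.30, adjusted p 0.000191). Selplg, the ligand of P-selectin, had 31.2, 46.6 and 34.4 FPKM in DNCB and 6.92, 6.06 and 11.9 in scMSC (adjusted p 0.000896). Itgam, the alpha chain of the complement receptor on myeloid cells, had an adjusted p of 0.0448, overlaps Gm49368, and lost its call in each of the 6 omissions. Itgb1 and Itgb7 lay at -0.13 and 0.19 and were not called.

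Most but not all monocyte genes fell. Of 15 tested, 11 were called lower with total counts and 9 with TMM, which also called Ms4a6b higher, with medians of -2.04 and -1.28. Mpeg1, a pore-forming protein of macrophages and monocytes, had 14.2, 18.4 and 10.9 FPKM in DNCB and 3.87, 3.07 and 3.69 in scMSC (log2 difference -2.04, SE 0.44, adjusted p 0.00257). Ms4a6c, a membrane protein of monocytes, had 2.98, 5.45 and 3.37 FPKM in DNCB and 0.95, 0.816 and 0.965 in scMSC (adjusted p 0.00457), and it overlaps BE692007 on the opposite strand. Ms4a6d, a near relative, had 2.31, 5.04 and 3.88 FPKM in DNCB and 1.09, 0.325 and 0.289 in scMSC (log2 difference -2.71, adjusted p 0.00306). F13a1, coagulation factor XIII, which monocytes and platelets both carry, had 9.18, 13.8 and 7.93 FPKM in DNCB and 5.83, 7.41 and 6.99 in scMSC. The F13a1 groups did not overlap but the change was small and not called (log2 difference -0.62, adjusted p 0.119). Ace, a marker of patrolling monocytes, was not called under either scaling.

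In the eosinophil and basophil list, 3 of 6 tested genes were called lower with total counts and 1 lower and 1 higher with TMM, with medians of -1.23 and -0.51. Hdc, the enzyme that makes histamine, had 14.5, 24.6 and 15.6 FPKM in DNCB and 2.42, 2.43 and 2.58 in scMSC, with a log2 difference of -2.89 (SE 0.37, adjusted p 6.93e-05) and -2.11 with TMM. The other called genes were Cpa3 and Mcpt8, proteases of mast cells and basophils, at -2.41 and -1.75 with total counts only, with a mean FPKM in DNCB of 1.28 and 3.49. The 3 calls became 1 without DNCB replicate 1, DNCB replicate 2 or scMSC replicate 3. Prg2, the eosinophil major basic protein, went the other way, at 0.196, 0.594 and 0.103 FPKM in DNCB and 1.88, 1.19 and 1.25 in scMSC. Prg2 passed the filter through the scMSC libraries alone, so it could only be higher. It missed the threshold with total counts (log2 difference 2.21, adjusted p 0.0548) and was called higher with TMM (adjusted p 0.0191) and without DNCB replicate 2.

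Most tested transcription factors of the myeloid lineage fell as well. Of 7 tested, 5 were called lower with total counts and 4 with TMM, with medians of -2.03 and -1.29. Spi1 encodes PU.1, a factor that myeloid cells require, and had 28.3, 43.5 and 30.1 FPKM in DNCB and 5.19, 5.03 and 5.64 in scMSC (log2 difference -2.69, SE 0.39, adjusted p 0.000155). Cebpd, a factor of the acute phase response, had 12.4, 20.8 and 13 FPKM in DNCB and 2.54, 2.25 and 2.8 in scMSC (log2 difference -2.62, adjusted p 0.000181). Cebpb, which drives emergency granulocyte output, had 17.4, 29 and 18.1 FPKM in DNCB and 7.35, 3.54 and 5.06 in scMSC (adjusted p 0.00516). Cebpd and Cebpb overlap Spidr and Tmem189 on the opposite strand. Cebpe, a factor of late granulocyte maturation, lay at -2.25 and was called under both scalings, while Cebpa lay at -0.18 and was not called.

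Immediate early genes are switched on within minutes of a stimulus. Of 15 tested, 10 were called lower with total counts and 4 with TMM, and 6 without DNCB replicate 2 or scMSC replicate 2, with medians of -1.57 and -0.82. Fos had 5.14, 3.78 and 3.19 FPKM in DNCB and 0.679, 1.06 and 0.893 in scMSC (log2 difference -2.19, SE 0.55, adjusted p 0.00622), and here DNCB replicate 1 was the highest. Junb had 36.3, 49.7 and 38.4 FPKM in DNCB and 10.8, 10.3 and 11.2 in scMSC (log2 difference -1.96, adjusted p 0.00142), with a Solvent mean of 10.6. Egr1 did not pass the filter. Among NF-kappaB subunits and inhibitors, 6 of 8 were called lower with total counts, where 7 had an unadjusted p under 0.05, and 1 with TMM, and the medians were -1.41 and -0.65. The 6 became 3 without scMSC replicate 3, and 0 in edgeR without DNCB replicate 2 or without scMSC replicate 2, while DESeq2 called 1 and limma 2 of the 8 with all libraries. The gene called with TMM was Bcl3, a nuclear regulator of NF-kappaB, with 3.08, 5.64 and 5 FPKM in DNCB and 0.903, 0.852 and 1.22 in scMSC (adjusted p 0.0162). Nfkbia, the feedback inhibitor, had 7.2, 17 and 7.73 FPKM in DNCB and 5.68, 3.27 and 3.6 in scMSC, and DNCB replicate 2 was more than 2-fold above the other DNCB libraries. Of 6 tested glucocorticoid response genes, 3 were called lower with total counts, 1 higher with TMM, 1 lower without DNCB replicate 2 or scMSC replicate 3, and 0 without scMSC replicate 2 in edgeR, while limma called 2 lower and DESeq2 1 higher. The medians were -1.23 and -0.45. Tsc22d3, a glucocorticoid-induced gene, was among them (log2 difference -1.36 with total counts and -0.62 with TMM).

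Most tested glycolysis genes were also among the falls. Of 12 tested glycolysis genes, 9 were called lower with total counts and 5 with TMM, with medians of -1.77 and -1.02. Hk3, the hexokinase of myeloid cells, had 10.2, 14.3 and 9.29 FPKM in DNCB and 1.7, 1.47 and 2.07 in scMSC (log2 difference -2.69, SE 0.57, adjusted p 0.00237). Hk1, the hexokinase of red cells and most other cells, lay at -0.23 and was not called. Of 7 tested Bcl2 family genes, which control cell survival, 2 were called lower with total counts (28.6%, against 31.0% of all tested genes), 1 with TMM and 1 when any library but scMSC replicate 1 was left out, with medians of -0.88 and -0.21. Mcl1, a survival protein on which neutrophils depend, had 65.1, 99.8 and 64 FPKM in DNCB and 22.8, 15.2 and 19.8 in scMSC (log2 difference -2.00, SE 0.34, adjusted p 0.000569). Bcl2l1, the survival protein of late red cell precursors and platelets, had 20.9, 21.1 and 28 FPKM in DNCB and 18.6, 5.41 and 14.4 in scMSC and was not called (adjusted p 0.0785). Upp1, a uridine phosphorylase outside the lists, was among the genes with the largest falls, from 6.04, 11 and 6.7 FPKM in DNCB to 0.231, 0.265 and 0.517 in scMSC (log2 difference -4.51, adjusted p 0.000232). Upp1 passed the filter through the DNCB libraries alone and could only be lower. Of 8 tested iron genes, 4 were called lower with total counts, and 3 lower and 1 higher with TMM, with medians of -0.98 and -0.30. Slc40a1, the iron exporter ferroportin, had 7.86, 12.9 and 8.13 FPKM in DNCB and 1.49, 1.64 and 1.71 in scMSC (log2 difference -2.59, adjusted p 0.000147). Fth1, the heavy chain of ferritin, had 147, 173 and 162 FPKM in DNCB and 201, 177 and 227 in scMSC and was called higher with TMM only. Txn1, the cytosolic thioredoxin, was the 1 gene of the red cell enzyme list that fell, from 46.9, 72.9 and 49.2 FPKM in DNCB to 9.95, 7.88 and 9.09 in scMSC (adjusted p 0.000248).

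Genes named for interferon did not move as a group. All 4 tested Ifitm genes, which code for small membrane proteins that hinder virus entry, were called lower under both scalings and in every omission, with medians of -3.74 and -2.996. Ifitm6, a member found in myeloid cells, had 78.4, 128 and 89.7 FPKM in DNCB and 2.72, 3.1 and 3.38 in scMSC (log2 difference -5.01, SE 0.55, adjusted p 2.44e-05), close to the Solvent mean of 2.91. Ifitm2 had 123, 209 and 148 FPKM in DNCB and 23.9, 15.6 and 17.8 in scMSC (adjusted p 0.000181). Ifitm3, which many cell types express, had the smallest fall of the 4, from 88.9, 120.2 and 92.8 FPKM in DNCB to 42.7, 19.3 and 26.3 in scMSC (log2 difference -1.79, adjusted p 0.000932). Of 6 tested Schlafen genes, 3 were called lower with total counts and 2 with TMM, with medians of -1.39 and -0.65. Slfn4, a Schlafen gene of myeloid cells, fell from 57.5, 72.5 and 47.7 FPKM in DNCB to 8, 5.64 and 8.27 in scMSC (log2 difference -3.03, adjusted p 2.62e-05). Slfn14, a Schlafen gene of red cell precursors and platelets, had 0.938, 0.891 and 1.06 FPKM in DNCB and 1.11, 0.683 and 1.41 in scMSC, overlapping ranges.

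Of 20 tested interferon-stimulated genes, 7 were called lower (35%) and 1 higher (5%) with total counts, against 31.0% and 1.37% of all tested genes. With TMM 4 were called lower and 2 higher, where 13.4% and 9.96% of all tested genes were. The 7 became 4 without scMSC replicate 2 or DNCB replicate 1. The median lay at -0.60 with total counts and 0.12 with TMM, near the medians of all genes. Isg15, a ubiquitin-like protein and common interferon marker, had 82.4, 61.3 and 88.1 FPKM in DNCB and 107, 63.7 and 75.2 in scMSC, overlapping groups with a log2 difference of 0.07 (adjusted p 0.855). Irf7, the factor that amplifies interferon output, had 6.88, 7.04 and 6.43 FPKM in DNCB and 11.6, 5.64 and 7.82 in scMSC (adjusted p 0.471), and it overlaps Phrf1. Oasl1 had the largest fall of the list, from 6.15, 7.94 and 4.71 FPKM in DNCB to 1.53, 1.2 and 1.07 in scMSC (log2 difference -2.31, adjusted p 0.00111), and it overlaps Gm13822. Ifit2, an RNA-binding interferon effector, was called higher under both scalings, at 2.69, 2.91 and 1.58 FPKM in DNCB and 5.44, 6.02 and 6.65 in scMSC (log2 difference 1.32, SE 0.33, adjusted p 0.00587). Its close relative Ifit3 had 1.84, 1.31 and 1.24 FPKM in DNCB and 1.38, 1.36 and 0.891 in scMSC and was not called.

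Antigen presentation genes showed few calls. None of the 5 tested MHC class II genes was called under either scaling in edgeR, by DESeq2 or by limma, 0 had an unadjusted p under 0.05 under either scaling, and their medians were -0.42 and 0.37. Cd74, the invariant chain, had 20.6, 40 and 15.3 FPKM in DNCB and 31.9, 14.2 and 24.5 in scMSC, and H2-Aa had 2.65, 5.42 and 1.7 and 2.36, 1.96 and 2.83. Both ranges overlapped, and the Solvent means were higher than either group, at 88.4 for Cd74 and 10.4 for H2-Aa. Of 16 class I and peptide loading genes, 2 were called lower with total counts and 3 higher with TMM, with medians of -0.29 and 0.46. B2m, the light chain of class I, was even across libraries, at 322, 359 and 334 FPKM in DNCB and 355, 331 and 371 in scMSC. The genes called lower were H2-T23 and the immunoproteasome subunit Psmb9. Neither was called without DNCB replicate 2, scMSC replicate 2 or scMSC replicate 3, and Psmb9 overlaps Tap1.

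T cell genes were not among the falls. With total counts edgeR called 0 of the 19 tested T cell genes, 4 had an unadjusted p under 0.05, and limma on log2(FPKM + 1) called 0. TMM scaling called 17 of them higher, as did DESeq2, and 1 was called higher with total counts without scMSC replicate 2. The medians were 0.62 and 1.36, and 18 of the 19 genes lay above 0 with total counts. Cd3e, a signalling chain of the T cell receptor, had 1.69, 1.55 and 1.1 FPKM in DNCB and 2.17, 2.25 and 2.96 in scMSC, a log2 difference of 0.75 (SE 0.34, adjusted p 0.0978) with total counts and 1.51 (adjusted p 0.000276) with TMM. Lck, the kinase of the receptor, had 6.99, 7.06 and 5.38 FPKM in DNCB and 10.1, 7.78 and 9.54 in scMSC, and log2 differences of 0.48 and 1.22. In Cd3e and Lck each scMSC library lay above each DNCB library, though by little. Lef1 and Tcf7, factors of naive T cells, had scMSC means of 1.21 and 12.1 FPKM against DNCB means of 0.779 and 9.14 and Solvent means of 2.74 and 22.6. Cd3d and Cd6 were the 2 genes not called with TMM, and Cd3d lay at -0.46 with total counts.

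B cell and natural killer cell genes had few calls. Of 8 tested B cell genes, 1 was called lower with total counts and 1 higher with TMM, with medians of -0.38 and 0.41. Cd79a, a chain of the B cell receptor, had 6.06, 13.8 and 5.53 FPKM in DNCB and 6.77, 5.83 and 6.72 in scMSC, and Cd79b had 3.99, 10.8 and 3.57 and 4.15, 3.45 and 4.87. DNCB replicate 2 was the highest of the 6 libraries in both genes, and the Solvent means were 33.4 and 23.8 FPKM. Cd37, a tetraspanin that B cells share with other leukocytes, was the gene that fell, from 13.3, 17.7 and 7.62 FPKM in DNCB to 5.42, 3.16 and 3.31 in scMSC (log2 difference -1.71, adjusted p 0.0061), and it was not called with TMM. Of 7 natural killer and cytotoxic genes, edgeR called 0 with total counts, where 0 had an unadjusted p under 0.05, limma called 0, and TMM and DESeq2 each called 1 higher. The medians were -0.27 and 0.48. Nkg7, a cytotoxic granule protein, had 4.36, 5.44 and 2.89 FPKM in DNCB and 4.68, 2.38 and 3.55 in scMSC, and Gzma, granzyme A, had 6.92, 8.71 and 5.9 and 9.61, 2.66 and 4.65, both overlapping.

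Igha, Jchain and Igkc, antibody genes of plasma cells, were higher in scMSC blood. They were the 3 of 11 tested constant region and plasma cell genes called higher with total counts, 5 were called higher with TMM, and the list medians were 0.66 and 1.3. Igha, the constant region of IgA (chromosome 12, 113254830 to 113260236), had 10.5, 9.97 and 3.73 FPKM in DNCB and 53.5, 27.4 and 20 in scMSC (log2 difference 2.05, SE 0.45, adjusted p 0.00305). Jchain, which joins IgA and IgM into polymers, had 3.96, 2.74 and 1.14 FPKM in DNCB and 14.2, 7.51 and 5.64 in scMSC (log2 difference 1.79, SE 0.48, adjusted p 0.00954). Igkc, the kappa light chain constant region, had 53, 65.9 and 24.2 FPKM in DNCB and 193, 100.3 and 87.3 in scMSC (log2 difference 1.40, SE 0.43, adjusted p 0.0199). In all 3 genes scMSC replicate 1 was the highest and DNCB replicate 3 the lowest of the 6 libraries.

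Without scMSC replicate 1 the calls of Jchain and Igkc were lost and 1 of the 3 was left. Igkc was also lost without DNCB replicate 3. Ighm, the constant region of IgM carried by naive B cells as well, had 12.5, 22.9 and 11.3 FPKM in DNCB and 16.4, 10.6 and 15.9 in scMSC and was not called (adjusted p 0.793). Of the 63 higher genes, 13 were immunoglobulin variable segments, against 0 of the 1426 lower genes. A further 62 immunoglobulin or T cell receptor segments were tested and not called, and 1.37% of all tested genes were called higher. Igkv11-125, Igkv4-61, Ighv1-9 and Ighv3-6 were under an FPKM of 1 in every DNCB library and could only be higher. Igkv10-94, Igkv8-30 and Igkv1-110, among others, lost their calls without scMSC replicate 1. Reads of such near-identical segments can be assigned to the wrong copy. The Solvent means of Igha and Jchain were 32.5 and 8.57 FPKM, near the scMSC means of 33.6 and 9.12, while the scivMSC means were 8.07 and 2.31.

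Platelet genes had few calls with total counts. Of 16 tested, 1 was called lower with total counts and 7 higher with TMM, with medians of 0.01 and 0.79. Without DNCB replicate 2, 1 was also called higher with total counts. Pf4, platelet factor 4, had 235, 247 and 234 FPKM in DNCB and 338, 364 and 464 in scMSC. Each scMSC library lay above each DNCB library, and the log2 difference of 0.69 (SE 0.23, adjusted p 0.0289) stayed under the fold threshold with total counts and passed it with TMM at 1.44. Ppbp, another platelet chemokine, had 281, 340.2 and 201 FPKM in DNCB and 245, 263 and 302 in scMSC, and Tubb1, the tubulin of platelets, had 44.4, 44.8 and 22.9 and 39.4, 51.1 and 61.6. Both overlapped between groups. Gp1bb, a chain of the von Willebrand factor receptor, fell from 28.5, 28.3 and 23.4 FPKM in DNCB to 10.2, 11.1 and 13.3 in scMSC (log2 difference -1.22, adjusted p 0.0036) with total counts only, and it overlaps Septin5 on the same strand.

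Red cell genes had few calls with total counts. Of 6 tested globin genes, edgeR called 0 with total counts, 0 had an unadjusted p under 0.05, limma called 0, and TMM and DESeq2 each called 2 higher, with medians of 0.10 and 0.84 for total counts and TMM. Hba-a1, an alpha globin, had 333140.0, 328520.0 and 344700.0 FPKM in DNCB and 356150.0, 379990.0 and 354840.0 in scMSC (log2 difference 0.10, SE 0.06, adjusted p 0.204). Alas2, the first enzyme of haem synthesis in red cell precursors, had 4330.3, 4011 and 4954 FPKM in DNCB and 4599, 4111 and 4168 in scMSC (log2 difference -0.06). Of 8 haem synthesis genes, with medians of -0.19 and 0.48, 1 was called lower with total counts, Ppox, whose call was lost with TMM and without DNCB replicate 2, scMSC replicate 2 or scMSC replicate 3, and it overlaps B4galt3. Slc4a1, the anion exchanger of the red cell membrane, had overlapping groups and a log2 difference of -0.18. In the list of red cell membrane genes, with medians of 0.15 and 0.80, Gypc, glycophorin C, was called higher under both scalings at 1.08 (adjusted p 0.0384), and it stayed called in 1 of 6 omissions with total counts, that of scMSC replicate 2. Epb41, the protein 4.1 of the membrane skeleton, fell from 38, 39.1 and 51.2 FPKM in DNCB to 20.5, 18.1 and 18.6 in scMSC (adjusted p 0.00404) with total counts only. Of 11 red cell enzyme genes, 1 was called lower under both scalings and 5 higher with TMM, with medians of 0.26 and 0.95. With total counts 1 of them was called higher without scMSC replicate 2 or DNCB replicate 3. Prdx2, a peroxidase of red cells, had 33.4, 25.5 and 54.3 FPKM in DNCB and 71.3, 44.2 and 81.1 in scMSC and was called higher with TMM only. Of 14 genes of reticulocyte clearance, 2 were called lower with total counts and 2 others higher with TMM, with medians of -0.04 and 0.63. Bnip3l and Ube2l6, genes of mitochondrial and ubiquitin clearance in reticulocytes, lay at -0.14 and 0.01 with total counts.

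Transcription factors of the red cell and megakaryocyte lineage included some of the rises. Of 7 tested, Gata1, Gfi1b and Tal1 were called higher under both scalings and in every omission of a library, and the list medians were 0.11 and 0.86. Gata1, the factor that red cells and megakaryocytes require (chromosome X, 7959260 to 7978071), had 2.15, 2.39 and 1.95 FPKM in DNCB and 7.06, 8.24 and 9.31 in scMSC. Its log2 difference was 1.91 (SE 0.33, adjusted p 0.000601), and the lowest scMSC library lay well above the highest DNCB library. Gfi1b, a repressor of the same lineages (chromosome 2, 28609450 to 28621982), had 0.585, 1.18 and 0.292 FPKM in DNCB and 2.89, 3.44 and 4.04 in scMSC (log2 difference 2.29, SE 0.48, adjusted p 0.00218). Tal1, a partner of Gata1 in blood formation, had 1.77, 1 and 1.06 FPKM in DNCB and 3.21, 4.39 and 4.02 in scMSC (log2 difference 1.58, SE 0.37, adjusted p 0.00412).

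For these 3 factors the scMSC mean also exceeded the Solvent mean, a difference given here without a test. The Solvent means were 2.3 FPKM for Gata1, 1.04 for Gfi1b and 1.7 for Tal1, and the scivMSC means were 9.55, 3.02 and 2.68. The other members, Ldb1, Lmo2, Nfe2 and Zfpm1, lay between -0.58 and 0.11 with total counts and were not called, and Klf1, the factor of adult globin genes, did not pass the filter. Most genes of the globin, haem and membrane lists above were not called.

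Further genes rose outside these lists. Ormdl3, a regulator of sphingolipid synthesis in the endoplasmic reticulum that human genetics has linked to asthma (chromosome 11, 98581256 to 98587368), had 13, 13.7 and 8.3 FPKM in DNCB and 31.9, 37.9 and 39.2 in scMSC. Its log2 difference was 1.62 (SE 0.28, adjusted p 0.000671), every scMSC library was more than 2-fold above every DNCB library, and the Solvent mean was 15.9. Cd226, an activating adhesion receptor of natural killer cells, T cells and platelets, had 3.59, 3.63 and 2.17 FPKM in DNCB and 13.9, 18.2 and 9.34 in scMSC (log2 difference 2.13, SE 0.39, adjusted p 0.00086). Mbnl1, a splicing regulator, had 0.875, 1.62 and 0.517 FPKM in DNCB and 3.79, 1.63 and 4.41 in scMSC, with scMSC replicate 2 barely above the highest DNCB library (log2 difference 1.69, adjusted p 0.00764). P2ry12, the ADP receptor of platelets, was named after its values were seen, and had 12.4, 14.1 and 13.6 FPKM in DNCB and 29.3, 25 and 38.3 in scMSC (log2 difference 1.20, adjusted p 0.00437).

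Of 17 tested replication-dependent histone genes, 3 were called higher with total counts and 7 with TMM, and 1 without DNCB replicate 3 or scMSC replicate 3, with medians of 0.18 and 0.91. H2bc15 had the largest rise, from 0.41, 1.11 and 0.571 FPKM in DNCB to 1.84, 2.83 and 4.48 in scMSC (log2 difference 2.09, SE 0.62, adjusted p 0.0163), and its call was lost without scMSC replicate 3, DNCB replicate 1 or DNCB replicate 3. Histone copies share sequence, and messages without a poly(A) tail are captured unevenly in many library types. Mir27a, listed as the gene of a microRNA hairpin, was at the counting floor in all DNCB libraries and at least 2.23-fold higher in scMSC, and reads over a hairpin do not measure the mature microRNA. A pseudogene, Rps13-ps1, had 2.58, 2.09 and 1.69 FPKM in DNCB and 5.45, 7.1 and 7.56 in scMSC (adjusted p 0.0272) and may share reads with its parent gene. The transcript CT010467_ENSMUSG00000106106 on chromosome 17, known only by a clone name, was among the most abundant of the called genes, at 1247, 947 and 1073 FPKM in DNCB and 4076, 6142 and 3684 in scMSC (adjusted p 0.00633). It overlaps a transcript of the same clone name on the opposite strand. Its Solvent mean was 5168 FPKM with an SD of 3486, so it varied widely within the vehicle group.

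**Figure D4:**
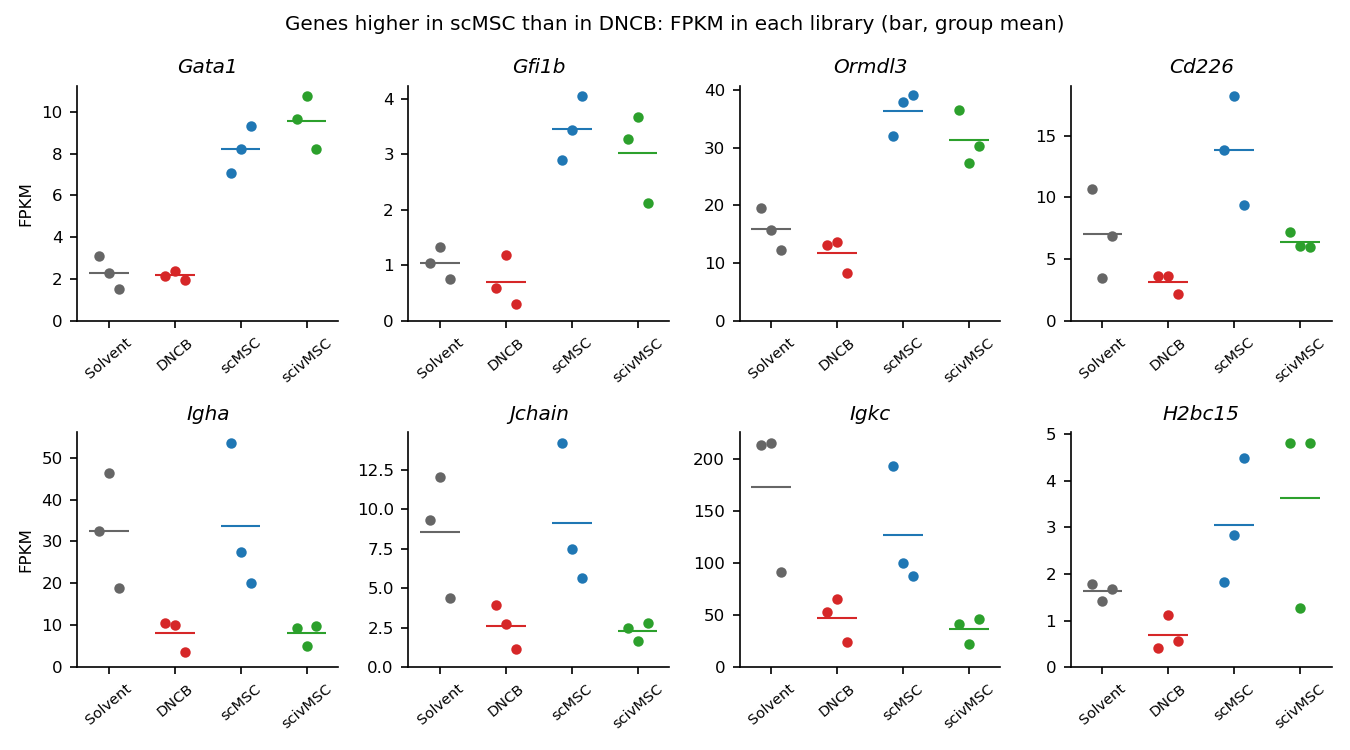
FPKM on a linear axis from 0 in each of the 12 blood libraries for 8 genes that were called higher in scMSC than in DNCB, with a bar at each group mean. Gata1 and Ormdl3 were high in scMSC and scivMSC and low in Solvent and DNCB, whereas Igha, Jchain and Igkc were low in DNCB and scivMSC in mean.

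Genes that all cells use had few calls. Of 77 tested cytosolic ribosomal protein genes, 1 was called lower with total counts and 1 higher with TMM, with 0 to 2 lower calls on omission of single libraries, and their median changed sign with the scaling, from -0.38 to 0.35. With total counts 71 of the 77 lay above the median of all tested genes, as did all 13 protein-coding genes of the mitochondrial genome, whose medians were -0.38 and 0.37. Of 72 nuclear-encoded respiratory chain genes, 7 were called lower with total counts and 1 higher with TMM, with medians of -0.66 and 0.06, and the 7 became 0 without DNCB replicate 2 or scMSC replicate 2 and 1 to 3 without any other library. In that list 21 genes had an unadjusted p under 0.05 with total counts, and limma called 2 lower. None of those 13 mitochondrial genes was called in edgeR under either scaling, by DESeq2 or by limma, and 1 had an unadjusted p under 0.05 with total counts and 5 with TMM. The mitochondrial gene mt-Co1, a subunit of cytochrome oxidase, had 1134, 1260.3 and 1189 FPKM in DNCB and 1028, 744 and 897 in scMSC (log2 difference -0.44, adjusted p 0.0694). Of 35 proteasome genes, 2 were called lower with total counts and 0 with TMM, DESeq2 or limma, although 7 had an unadjusted p under 0.05 with TMM, and the 2 became 1 without scMSC replicate 1, and 0 without DNCB replicate 2, scMSC replicate 2 or scMSC replicate 3. Their medians lay at -0.66 and 0.07. Of 5 cell cycle genes, with medians of -0.36 and 0.40, Ccna2 was called lower with total counts, and its call was lost in each omission. Mki67, a marker of cycling cells, had 1.12, 1.07 and 1.3 FPKM in DNCB and 1.48, 0.835 and 1.22 in scMSC and lay at 0.01.

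Defining markers of each cell type were summed to check the tissue. All of them are members of the 49 lists, so these sums repeat genes already counted. The 9 neutrophil markers, all called lower under both scalings, summed to 6916 to 10861 FPKM in DNCB and to 571 to 712 in scMSC. Most of that sum came from S100a8 and S100a9. Of 5 monocyte markers, 3 were called lower, and the sum went from 32.3 to 55.2 FPKM in DNCB to 14.1 to 15 in scMSC. Of 6 T cell markers, 5 were called higher with TMM only, and their sums, 15.9 to 23.5 FPKM in DNCB and 21.3 to 29.8 in scMSC, overlapped. Of 3 tested eosinophil and basophil markers, 2 were called lower with total counts. With TMM 1 was called higher, Prg2, which could only be higher. The sum of all 4 was 4.3 to 6.04 FPKM in DNCB and 1.66 to 4.03 in scMSC. Sums of the B cell, natural killer cell, platelet and erythroid markers overlapped between the groups too. The erythroid markers had the largest sum of all these types in each of the 6 libraries. Of 6 keratinocyte, stromal and endothelial markers, 1 passed the filter, Pecam1, which platelets and leukocytes also carry, and Krt14 was listed at 0 in all 6 libraries. The part of these cell type markers in any single gene's result was not tested.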

How the data were processed

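RNA-seq of whole blood gave 12 libraries. The authors deposited a table of 25247 genes with FPKM values and estimated counts for the 12 libraries. FPKM is per kilobase and per 1000000 fragments of the library, haemoglobin included, and the deposited estimated counts, whole numbers that sum to 52.2e6 to 65.1e6 per library, carry no further normalization. The submitters' processing notes name Bowtie 0.12.2, HISAT2 2.0, StringTie 1.3.0 and the build mm8 without giving roles. Gene positions nevertheless overlap those of RefSeq on GRCm38.p6 for 21402 of 21414 symbols matched (99.9%), so coordinates are given as GRCm38 positions. Strand use in counting was not given in the sources used here. Of count values from 1 to 12, 29.0% were 4 and 16% were 8, so about 4 counts stand for a fragment, and libraries held 13e6 to 16.3e6 fragments on that reading. The floor of a group was 12 counts or fewer in each library, 3 fragments, and covers counting error only. Of the symbols, 36 belong to several identifiers, and Aldoa was left out of the glycolysis list for that reason.

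Groups were taken from the labels, which give no sequencing batch or date. Whether each library came from a separate, unpooled mouse is not given in the sources used here. No pair of libraries within a group agreed within sampling noise. Genes that reached an FPKM of 1 in 3 or more of the 6 libraries entered the test, edgeR 4.0.16 in R 4.3.3 (quasi-likelihood test on rounded counts, scaled by total counts), with all 12 libraries and 4 group means in the fit, contrast scMSC minus DNCB. A gene was called at a Benjamini-Hochberg adjusted p under 0.05, over all 4599 genes, with a fold change over 2. The standard error (SE) of a log2 difference was derived from it and its F statistic. Alternatives were TMM scaling, totals without the 10 haemoglobin genes, DESeq2 1.42.0, limma 3.58.1 on log2(FPKM + 1) and log2(FPKM + 0.1), no filter, a mean FPKM of at least 5, counts divided by 4, the 6 libraries alone, a replicate block, and omission of each library. Scripts were tested on simulated data.

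Genes were named by rule: those marked in the lists, the called member of each list with the largest change, and the 10 most changed called genes in each direction whose groups did not overlap, with a mean FPKM of at least 2, and without predicted genes or receptor segments. Other members of the lists named with a value, and Il1b and P2ry12, were chosen after their values were seen. The members and lists were chosen with earlier results of these data known. Some genes that the rule selects are not reported here. No sequences were used here.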

Additional observations from a re-analysis of the deposited data

How the results depend on the processing

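The balance of higher and lower calls moved with the scaling, and lower calls outnumbered higher calls under each scaling run. Against 63 higher and 1426 lower calls with total counts, TMM gave 458 higher and 616 lower, DESeq2 gave 440 and 677, and totals without haemoglobin gave 172 and 991. The median log2 difference over all tested genes, -0.70 with total counts, was 0.052 with TMM, 0.012 with DESeq2 and -0.31 without haemoglobin in the totals. limma on log2(FPKM + 1) called 968 genes, 916 of them lower. A mean FPKM of at least 5 left 465 calls, 19 higher and 446 lower. The 6 libraries alone gave 1803 calls, 99 higher and 1704 lower. Omission of single libraries gave 888 to 1430 calls, 40 to 57 of them higher and 831 to 1390 lower, medians of -0.81 to -0.54, and haemoglobin differences of 3.02 to 5.22 points. The haemoglobin difference was 1.73 points as a share of summed FPKM. The counts fell most without DNCB replicate 2 (888) and scMSC replicate 2 (924), and the cause was not tested.

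Replicate numbers are shared by the groups, no pairing is stated in the sources used here, and the libraries were treated as not paired. The deviations of same-numbered libraries correlated at -0.002, 0.064 and 0.025 across genes, and not every library correlated best with its own number. Such values cannot show whether same-numbered libraries were handled together. A replicate block gave 1571 calls, 70 higher and 1501 lower. No filter gave 1084 calls, counts divided by 4 gave 1615, and limma on log2(FPKM + 0.1) gave 1540. Of 2554 values of named genes under the alternatives, 2273 kept their direction and call, 140 lost the call, 42 gained it and 99 changed sign without a call under either setting, 25 of them under TMM. Depth limits the result for some genes near or below an FPKM of 1, for which a library holds few fragments. Prg2 had 11, 32 and 6 counts in the DNCB libraries, whereas Lef1, also under 1 there, had 475, 470 and 348.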
